A study of Homo sapiens with 6 samples.

Results

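The replication-dependent histone genes of chromosome 6 were examined for R-loops, with 49 protein-coding genes of GENCODE release 44 mapped to GRCh37 that lie between 26 and 27.9 Mb and whose names begin with H1-, H2AC, H2BC, H3C or H4C, of 20176 protein-coding genes in all. HEK293T cells, a line derived from human embryonic kidney, were left untreated or were cultured for 3 h with 10 μM N2-heptynyl-dG, a deoxyguanosine with a heptynyl group on its N2 atom. All of the spKAS-seq samples, 2 untreated and 2 treated, were then exposed to 5 mM N3-kethoxal for 10 min, and there were 2 inputs from untreated cells. N3-kethoxal labels unpaired guanines, which lets the DNA strand that an RNA-DNA hybrid leaves free be pulled down and read in a strand-specific way. The R-loop peaks were available as 1 list per condition, with the position and strand of each peak and no height, so a gene could be scored only as having a peak or not. No spread between replicates, no depth and no test between the conditions could be had from the lists, and a peak formed in fewer cells cannot be told apart from a weaker one in every cell. Positions of peaks do not show whether the cells carry the markers of the labelled line.

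Replication-dependent histone genes encode the H2A, H2B, H3 and H4 proteins of the nucleosome core and the linker histone H1. They are transcribed mainly in S phase, when newly replicated DNA has to be packed, and they have no introns. Their mRNA is not polyadenylated but ends just after a conserved stem-loop, which is bound by the stem-loop binding protein SLBP. An R-loop forms where nascent RNA stays paired with its template strand and leaves the other strand single-stranded.

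The 49 genes comprise 6 H1, 11 H2A, 12 H2B, 10 H3 and 10 H4 genes, which lie in 3 groups of 28, 5 and 16 genes along the chromosome. The canonical transcripts of all 49 genes have 1 exon and are 386 to 797 bp long, with a median of 486 bp. The gene records of 9 of them exceed 2000 bp because longer transcripts are annotated, and the record of H2BC4 (37610 bp) contains H4C3 and H1-6. A peak is therefore called "on the transcript" when it has the strand of the gene and overlaps the canonical transcript itself.

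The sequences that separate the genes of divergent H2A-H2B pairs are shown because both genes of a pair start close to each other on opposite strands, and the peaks of these pairs took different forms. They are given on the plus strand of GRCh37, 5′ to 3′, and start right after the first base of the minus-strand gene and end right before that of the plus-strand gene. Capitals mark TATAA or CCAAT on either strand (TTATA and ATTGG on the minus strand). Both genes of the first pair (chr6:27114635-27114884) had a peak on the transcript, one gene of the second (chr6:27775708-27775950) had one, and neither gene of the third (chr6:27782556-27782799) had any.
H2BC12/H2AC12: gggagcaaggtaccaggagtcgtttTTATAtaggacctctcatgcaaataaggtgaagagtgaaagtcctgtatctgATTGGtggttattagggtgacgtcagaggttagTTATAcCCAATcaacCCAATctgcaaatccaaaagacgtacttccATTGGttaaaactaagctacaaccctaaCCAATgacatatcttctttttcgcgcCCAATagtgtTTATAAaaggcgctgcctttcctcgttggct
H2BC13/H2AC13: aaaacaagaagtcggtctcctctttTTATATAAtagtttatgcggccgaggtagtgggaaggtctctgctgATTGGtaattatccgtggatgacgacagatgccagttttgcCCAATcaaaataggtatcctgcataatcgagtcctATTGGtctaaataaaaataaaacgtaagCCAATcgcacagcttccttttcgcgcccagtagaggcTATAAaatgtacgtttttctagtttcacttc
H2AC14/H2BC14: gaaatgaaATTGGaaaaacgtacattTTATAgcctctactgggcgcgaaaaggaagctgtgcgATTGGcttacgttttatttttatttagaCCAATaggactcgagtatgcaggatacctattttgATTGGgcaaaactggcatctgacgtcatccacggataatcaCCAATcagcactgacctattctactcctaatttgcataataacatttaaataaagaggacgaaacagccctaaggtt

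The 250 bp upstream of H2AC8 (chr6:26216899-26217148, plus strand) and of H3C7 (chr6:26250864-26251113, minus strand) are shown with the same capitals, on the strand of the gene, because these 2 genes had a peak on the transcript in a single list.
H2AC8: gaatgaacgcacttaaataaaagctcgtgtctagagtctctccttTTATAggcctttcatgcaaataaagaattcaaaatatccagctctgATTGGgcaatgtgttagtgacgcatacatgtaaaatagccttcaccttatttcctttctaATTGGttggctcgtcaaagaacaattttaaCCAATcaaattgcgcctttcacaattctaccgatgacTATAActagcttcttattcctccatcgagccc
H3C7: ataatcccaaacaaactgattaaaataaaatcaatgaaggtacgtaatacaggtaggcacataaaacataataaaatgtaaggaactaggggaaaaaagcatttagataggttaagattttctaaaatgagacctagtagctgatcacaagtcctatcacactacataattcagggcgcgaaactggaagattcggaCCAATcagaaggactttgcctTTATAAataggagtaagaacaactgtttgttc

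TATAA on the strand of the gene was present in the 250 bp upstream of 39 of 49 genes (79.6%), against 12.3% of all protein-coding genes. CCAAT on either strand was present in 87.8% against 34.2%. ATTTGCAT, the octamer bound by POU2F1, was found on either strand upstream of 36.7% of the genes against 1.53% of all, in 9 of 11 H2A and 9 of 12 H2B genes and in no H1, H3 or H4 gene. The 250 bp upstream of the 2 genes of a divergent H2A-H2B pair largely overlap. A CCAAT or octamer site between them can therefore be counted for both genes, and the H2A and H2B counts are not independent. In the 29 genes with a peak on the transcript in either list and the 20 without, the shares were 86.2% and 70% for TATAA, 82.8% and 95% for CCAAT, and 41.4% and 30% for the octamer. These are matches of letters and not measured binding.

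At the other end of the gene, the histone stem-loop was found by its structure, a perfect 6-bp stem that begins with GG and a 4-base loop that begins with T, in the last 100 bp of the transcript or the 50 bp after it, in 47 of 49 genes and in 0.347% of all protein-coding genes. It is shown because it marks where the canonical mRNA ends and thus how far a peak extends beyond that mRNA. The stem is in capitals. The first form was present in 28 genes, 17 of them with a peak on the transcript, and the other two in 7 genes each, 6 and 4 of them with such a peak.
Stem-loop form 1: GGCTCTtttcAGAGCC
Stem-loop form 2: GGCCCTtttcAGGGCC
Stem-loop form 3: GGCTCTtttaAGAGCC

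In untreated cells, 35 of the 49 histone genes had an R-loop peak within 1 kb of the gene record on either strand, which is 71.4% (95% Wilson interval 57.6 to 82.2%, counting error only) against 39.1% of all protein-coding genes. In treated cells, 34 genes did, which is 69.4% (55.5 to 80.5%) against 41.2% of all protein-coding genes. Of these, 33 had a peak in both lists, 13 had none in either, 2 had one in the untreated list only and 1 in the treated list only. Of all protein-coding genes, 33.7% had a peak in both lists, 5.47% in the untreated list only and 7.54% in the treated list only. With the strand of the gene required and the window set to the first 500 bp of the gene, 28 genes had a peak in each list, 57.1% (43.3 to 70.0%), while the share of all protein-coding genes was 16.6% in untreated and 18.7% in treated cells. Under that rule 27 genes (55.1%) were found in both lists, against 13.6% of all protein-coding genes. In the untreated list only there was 1 gene and in the treated list only 1 (2.04% each), against 3.01% and 5.14% of all. Histone genes are much shorter than most genes, whose canonical span has a median of 22645 bp, so that the record rule gives the latter more room for a peak and the rule on the first 500 bp does not. These shares have no test, because each condition has 1 list and the genes share promoters and peaks.

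**Figure D1:**
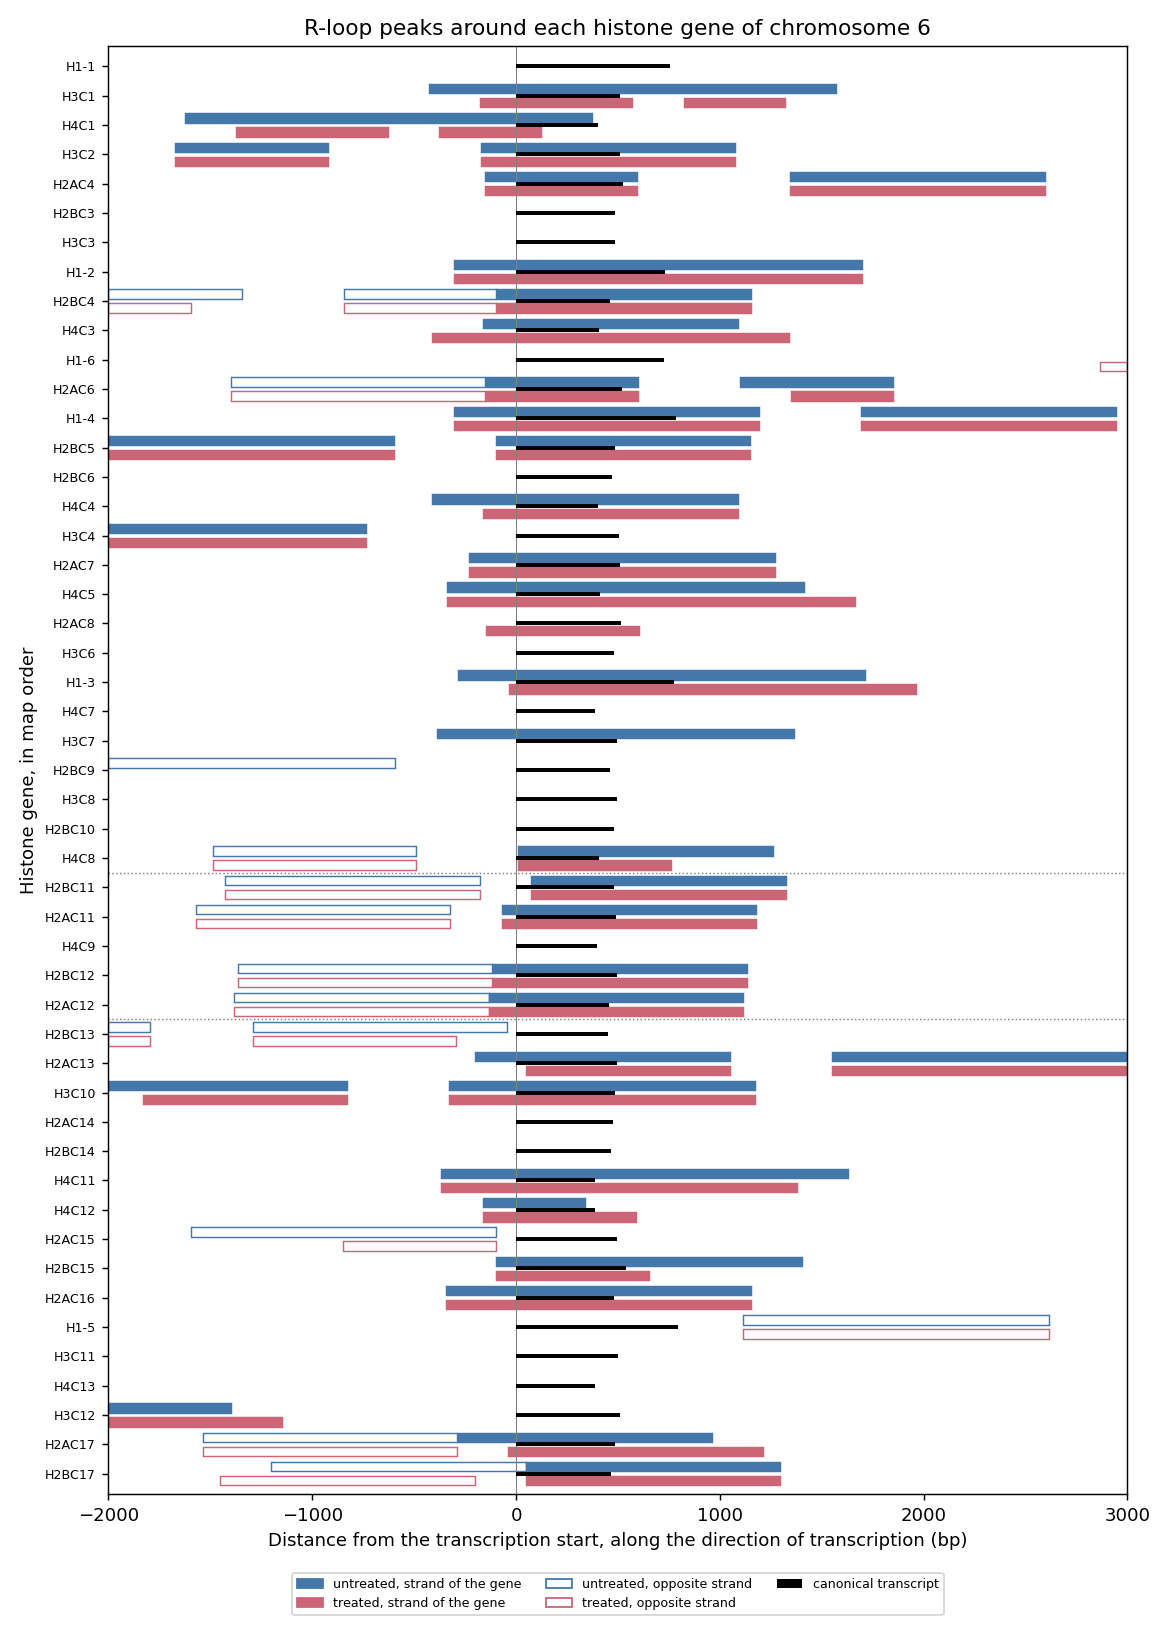
R-loop peaks at each of the 49 histone genes in map order, against the distance from the transcription start in bp along the direction of transcription. Filled bars are peaks on the strand of the gene, open bars peaks on the opposite strand (blue, untreated; red, treated), black lines the canonical transcripts, and dotted lines separate the 3 groups; most bars lie in the same place in both lists.

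A peak on the transcript was present in 28 genes of each list (57.1%, against 22.4% of all protein-coding genes in untreated and 24.2% in treated cells), 27 of them in both, and 20 genes had none in either list. By family, in either list, 3 of 6 H1 genes, 9 of 11 H2A genes, 6 of 12 H2B genes, 4 of 10 H3 genes and 7 of 10 H4 genes had one. By position, 16 of 28 genes in the first group, 4 of 5 in the second and 8 of 16 in the third had one in each list. The linker histone genes with such a peak were H1-2, H1-3 and H1-4. The testis gene H1-6 had no peak in either list, and H1-1 had none either. H2AC1 and H2BC1, also known as testis histone genes, lie just outside the window and had 0 peaks in either list.

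**Figure D2:**
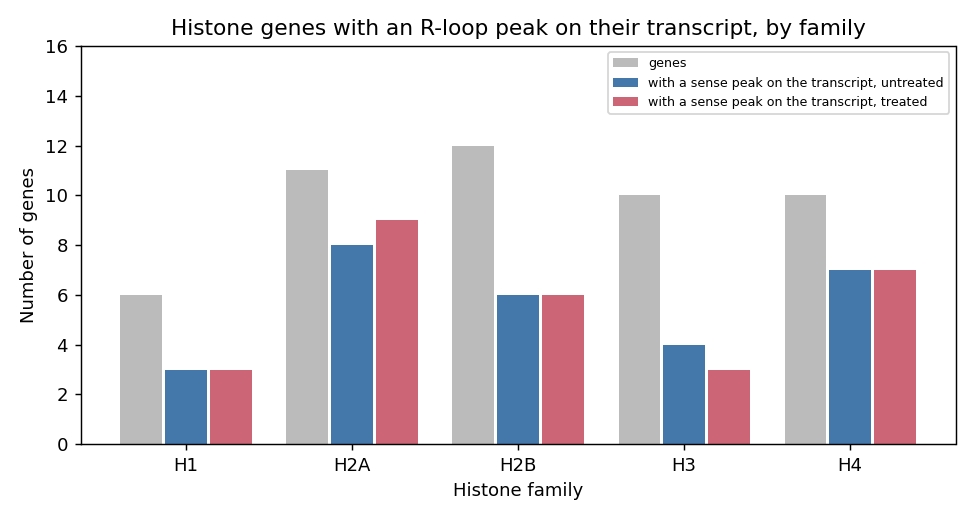
Number of histone genes in each family (grey) and of those with a peak on the transcript in untreated (blue) and treated (red) cells. The counts are the same in both lists for H1, H2B and H4, and differ by 1 gene for H2A and H3.

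The H2A genes with a peak on the transcript in both lists were H2AC4, H2AC6, H2AC7, H2AC11, H2AC12, H2AC13, H2AC16 and H2AC17, and those of H2B were H2BC4, H2BC5, H2BC11, H2BC12, H2BC15 and H2BC17. H2A and H2B form the dimers that flank the H3-H4 tetramer of the nucleosome. Among H3 genes, H3C1, H3C2 and H3C10 had one in both lists, and among H4 genes H4C1, H4C3, H4C4, H4C5, H4C8, H4C11 and H4C12 did. No peak of either strand lay within 1 kb of H2BC3, H3C3, H3C6, H4C7, H3C8, H2BC10, H4C9, H2AC14, H2BC14, H3C11 or H4C13, nor of H1-1 or H1-6. A further H4 gene, H4C2, appears in the annotation under its older name HIST1H4B and is therefore not among the 49. It had a minus-strand peak at chr6:26026501-26027750 in both lists, on the strand of the gene. H2BC7, H2BC8 and H4C6 were not found in the annotation under these names and are not among the 49 either. The counts by family, of divergent pairs and of genes for an identical protein do not include any of these genes.

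H2AC8 was the gene with a peak in the treated list only. Its peak was 750 bp wide (chr6:26217001-26217750, plus strand) and covered the whole transcript of 517 bp, and the untreated list held no peak within 1 kb. H3C7 had a peak in the untreated list only, 1750 bp wide (chr6:26249501-26251250, minus strand), which also covered the whole transcript. H2BC9, on the opposite strand upstream of H3C7, was counted among the genes with an untreated peak only through this same peak, which is antisense to it and does not reach its transcript. Both conditions thus had 1 peak at these genes that the other lacked, and with 1 list each it was not tested whether either difference exceeds the variation between replicates.

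In total 30 untreated and 31 treated peaks were tied to the 49 genes. The other list held an overlapping peak for 29 of the untreated peaks (96.7%, 83.3 to 99.4%) and for 30 of the treated peaks (96.8%, 83.8 to 99.4%), whereas 74.8% and 69.5% of all peaks in the lists were shared. Wide peaks were shared more often throughout the lists: among peaks elsewhere of 1000 bp or wider, 87.0% of untreated and 87.7% of treated ones were shared, and among narrower ones 68.3% and 61.1%. At the histone genes, 25 of 26 untreated and 22 of 22 treated peaks of 1000 bp or wider were shared, and 4 of 4 and 8 of 9 narrower ones.

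The borders of 16 peaks were identical in both lists to the base pair, on the grid of 250 bp on which nearly all peaks of the lists lie. This included the peaks on the transcripts of 5 of 6 H2B genes, 6 of 8 H2A genes, 2 of 3 H1 genes and 2 of 4 H3 genes. None of the 7 H4 genes had identical borders. The share of identical borders among all peaks of the lists was not computed, so these counts have no background beside them. At H4C3 the width was 1250 bp in untreated cells and 1750 bp in treated ones, at H4C5 1750 and 2000 bp, and at H4C12 500 and 750 bp. At H4C4 it was 1500 and 1250 bp, at H4C11 2000 and 1750 bp, and at H4C8 1250 and 750 bp. The H4 peaks were thus wider in treated cells at 3 genes and narrower at 3. The remaining H4 gene, H4C1, shared an untreated peak of 2000 bp with its neighbor H3C1 (chr6:26020251-26022250), and in the treated list this interval held separate peaks of 750 bp at H3C1 and 500 bp at H4C1.

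Of 28 peaks with a single partner in the other list, 4 were wider in treated cells, 6 were narrower and 2 were moved by 250 bp at the same width, those of H1-3 and H2AC17. The largest gain was 500 bp, at H4C3 and at a peak upstream of H2BC6, and the largest loss was that of H2BC15, from 1500 to 750 bp. Over these 28 pairs the widths dropped by 750 bp in sum. The summed width of all peaks tied to the genes came to 40250 bp without and 37750 bp with the treatment.

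The peaks had a median width of 1250 bp in both lists, against 750 bp for all peaks, and ranged from 500 to 2000 bp. Peaks of 1000 bp or wider made up 86.7% of the untreated and 71.0% of the treated peaks at histone genes, against 34.9% and 31.3% of all peaks in these lists. The widest, at 2000 bp, were those of H3C1-H4C1, H1-2, H1-3 and H4C11 in untreated cells and those of H1-2, H1-3 and H4C5 in treated cells. They were followed at 1750 bp by H4C5 and H3C7 in untreated and by H4C3 and H4C11 in treated cells. The widest peak of the lists was 5500 bp.

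**Figure D3:**
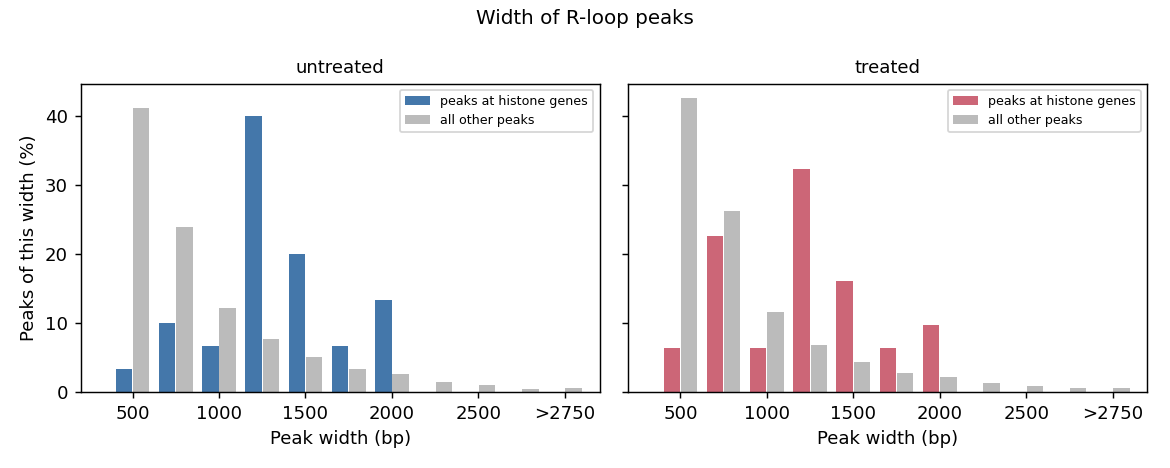
Width of R-loop peaks in bp, as the percentage of peaks at histone genes (blue, untreated, 30 peaks; red, treated, 31 peaks) and of all other peaks (grey); the last bar holds all larger widths. The commonest width is 1250 bp at histone genes and 500 bp elsewhere, in both lists.

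Most of the peaks on the transcript covered the whole transcript and reached past its end. The transcripts have a median length of 486 bp, whereas these peaks are at least 500 bp wide on a grid of 250 bp. Covering a whole transcript is thus partly given by these sizes. Of 28 gene and peak pairs in each list, 25 in untreated and 24 in treated cells covered the transcription start, 23 in each covered the whole transcript, and 26 and 27 extended beyond the transcript end. The border lay a median of 186.5 bp upstream of the start in untreated cells and 151.5 bp in treated cells. On the other side it lay a median of 686 bp (quartiles 563 and 855 bp) and 669.5 bp (315 and 779 bp) past the canonical transcript end. At H2BC4, H2AC6, H2BC5, H4C8, H2BC11, H3C10 and H2BC15 longer transcripts are annotated. There the peak ended within the gene record in both lists. The peaks of H1-2 and H1-3, 2000 bp in both lists, covered genes with transcripts of 731 and 776 bp.

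Measured from the stem-loop, the peak reached past it in 25 of 27 genes in untreated cells and 26 of 27 in treated cells, by a median of 691 and 670 bp. At H4C1 the peak ended 23 bp before the last base of the stem-loop in untreated cells and before it in treated cells too, and at H4C12 it ended before it in untreated cells and 205 bp past it in treated cells. H2AC11 had a peak in both lists but no stem-loop was found within the window searched, which was also the case for H2AC15. The genes named above whose peak ended within a longer gene record are included. The RNA that pairs with DNA past the stem-loop was not measured.

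At 1000 bp downstream of the start, 46.9% of the histone genes in untreated cells and 42.9% in treated cells lay under a peak on their strand, whereas 2.42% and 2.19% of all protein-coding genes did. At the start itself the shares were 51% and 49% against 13.9% and 15.6%. At 500 bp upstream, 2.04% and 0% of the histone genes were covered on their strand, against 1.67% and 1.85% of all protein-coding genes. On the opposite strand the share there was 22.4% in both lists, against 8.44% and 9% of all.

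**Figure D4:**
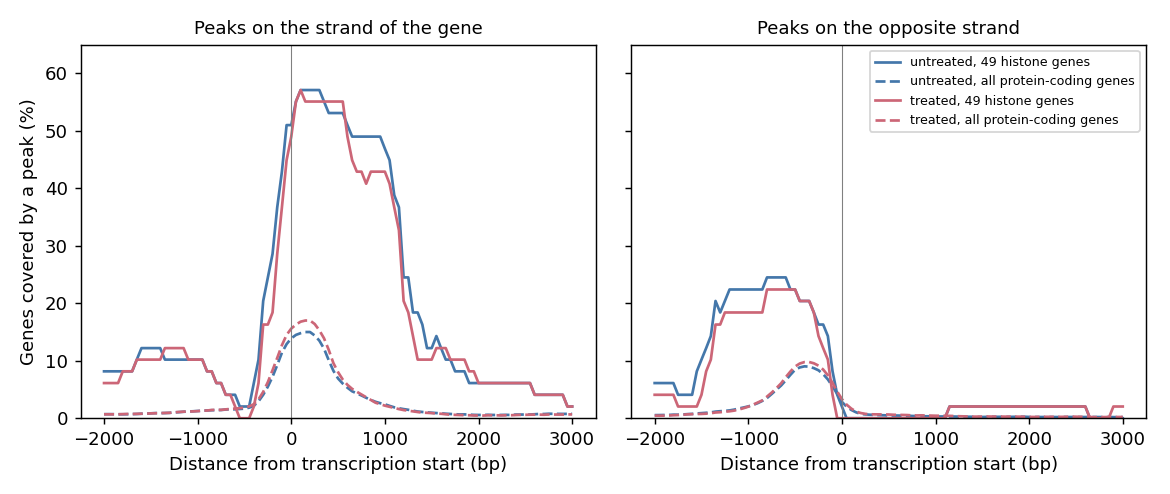
Percentage of genes under an R-loop peak against the distance from the transcription start in bp, for peaks on the strand of the gene (left) and on the opposite strand (right), for the 49 histone genes (solid) and all protein-coding genes (dashed) in untreated (blue) and treated (red) cells. Coverage of the histone genes on their own strand stays above 40% to about 1000 bp, while that of all genes is 2.42% and 2.19% there.

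When each peak was paired with every histone gene within 1 kb, 38 of 53 pairs in untreated cells (71.7%, 58.4 to 82.0%) and 40 of 54 in treated cells (74.1%, 61.1 to 83.9%) had the strand of the gene, against 68.3% and 67.5% over all protein-coding genes. In each list 20 peaks were tied to more than 1 gene, so the antisense pairs were largely the neighbor's peak. Of 14 untreated peaks antisense to a histone gene, 13 lay on the transcript of another histone gene, and 12 of 13 did in treated cells. The exception in both lists was a plus-strand peak of 1000 bp (chr6:26286251-26287250) upstream of H4C8, which is a minus-strand gene.

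An antisense peak within 1 kb was present at 28.6% of the histone genes in untreated and 26.5% in treated cells. Over all protein-coding genes the shares were 15.9% and 17.2%. Peaks on both strands within 1 kb were present at H2BC4, H2AC6, H4C8, H2BC11, H2AC11, H2BC12, H2AC12, H2AC17 and H2BC17, the 9 genes that had both a peak on the transcript and an antisense one. The share of all protein-coding genes with both was not computed. H3C12, an H3 gene, had both only because its record of 2792 bp reaches into the H2AC17-H2BC17 pair, and its transcript carried no peak. A further 6 genes had a peak within 1 kb but not on the transcript. At H3C4 this was the peak of H2AC7 upstream of it, at H1-5 that of H2AC16 on the opposite strand past its end, and at H2BC6 a peak (chr6:26172251-26173250 in untreated cells) near the beginning of its record of 12597 bp, far upstream of the canonical start. H2BC9, H2BC13 and H2AC15 were the other three, each through the peak of its divergent neighbor.

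Among 8 divergent pairs with starts within 1 kb of each other, 4 had a peak on the transcript of both genes in both lists. The share among all divergent pairs of protein-coding genes was not computed. These were H2BC4-H2AC6, H2BC11-H2AC11, H2BC12-H2AC12 and H2AC17-H2BC17. At each of them a minus-strand peak and a plus-strand peak met between the genes or close to a start, with 0 or 250 bp between their borders. At H2BC12-H2AC12, whose promoter is shown above, both peaks were 1250 bp wide and met at chr6:27114750, within the 250 bp between the genes, and they were identical in both lists.

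**Figure D5:**
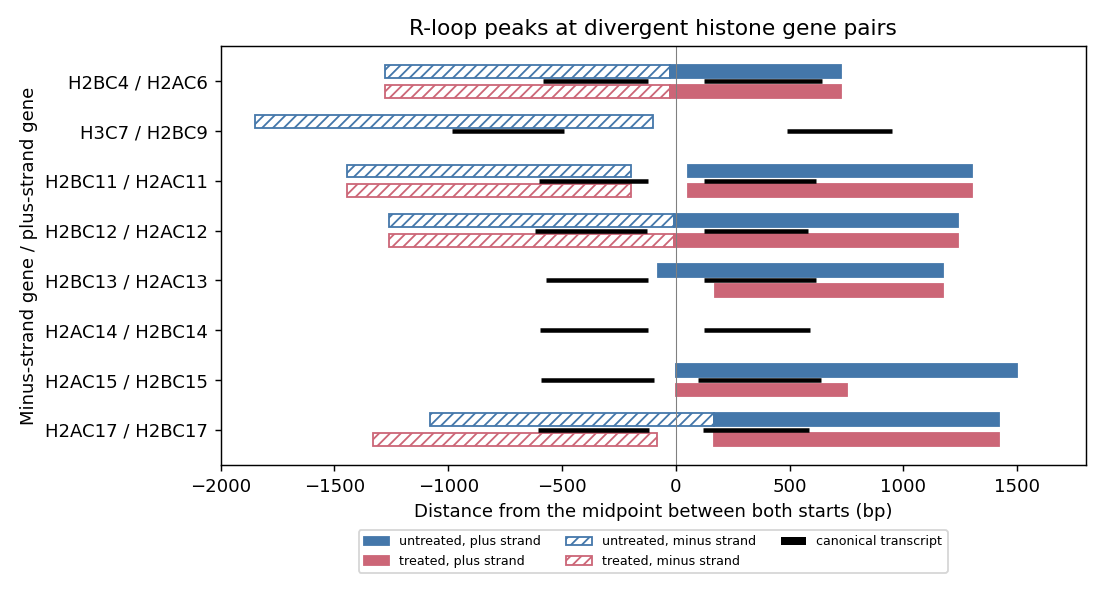
R-loop peaks on the transcripts of 8 divergent histone gene pairs, against the distance from the midpoint between both starts in bp. Hatched bars are minus-strand and filled bars plus-strand peaks (blue, untreated; red, treated), and black lines are the canonical transcripts; 4 pairs have peaks on both sides, 3 pairs have one side or list empty, and H2AC14-H2BC14 has no peak.

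At 2 pairs a peak was present at the plus-strand gene only, in both lists. At H2BC13-H2AC13 it lay on H2AC13 and was 1250 bp wide in untreated and 1000 bp in treated cells, and at H2AC15-H2BC15 it lay on H2BC15. In the first of these pairs the gene with the peak encodes H2A and in the second H2B. H3C7-H2BC9, with 978 bp between both starts, had the untreated peak of H3C7 described above, and H2AC14-H2BC14 had none in either list.

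The pairs H2BC13-H2AC13 and H2AC14-H2BC14 lie in opposite orientation, and their H2A genes are near copies of each other. H2BC13 and H2BC14 were identical at 219 of 246 aligned bases upstream (89.0%) and 385 of 450 in the transcript (85.6%). Neither of these H2B genes had a peak on the transcript. The 250 bp upstream of H2AC13 and H2AC14 were identical at 216 of 246 aligned bases (87.8%) and the transcripts at 455 of 475 (95.8%), yet H2AC13 had a peak in both lists and H2AC14 in none. H4C11 and H4C12, with 245 of 250 identical bases upstream (98.0%) and 383 of 387 in the transcript (99%), both had a peak in both lists, which was 2000 and 500 bp wide, respectively, in untreated cells. A read that lies wholly within identical stretches cannot be assigned to a single copy. Of the 31-base words in the transcript, 64.9% in H2AC13, 68.8% in H2AC14, 92.5% in H4C11, 93.0% in H4C12 and 71.0% in H2BC12 occur more than once in the genome, and the calls at these 5 genes are uncertain in that respect. How reads with several matches were treated beyond the default setting of the aligner is not given in the sources used here. In the other genes the share was under 50%, with a median of 9.58% in all genes with a peak on the transcript and 6.57% in those without.

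Genes that encode an identical protein differed in whether they had a peak. All 10 H3 genes encode 1 and the same protein, and 4 of them had a peak on the transcript. Of the 10 H4 genes, 9 encode the same protein, 7 of which had one. Among the H2A genes 5 encode the same protein, and 4 of these had one, and among the H2B genes 3 encode the same protein, and 1 of these had one. The 6 H1 genes encode 6 different proteins. Stretches of coding sequence, 90 bases each, are shown on the strand of the gene for a pair of H4 genes (H4C9, chr6:27107088-27107177, and H4C11, chr6:27791903-27791992, both plus strand) and a pair of H3 genes (H3C4, chr6:26197263-26197352, and H3C7, chr6:26250618-26250707, both minus strand). Capitals mark the bases that differ within a pair. Each pair had the fewest coding differences of its family among pairs with a peak on the transcript at a single gene. Each stretch is the 90 bases of the coding sequence, in frame, at which the pair differs most. H4C9 and H3C4 had no peak on the transcript, H4C11 had one in both lists, and H3C7 had one in untreated cells only.
H4C9: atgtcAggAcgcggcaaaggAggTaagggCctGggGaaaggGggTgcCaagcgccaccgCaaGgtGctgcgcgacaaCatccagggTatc
H4C11: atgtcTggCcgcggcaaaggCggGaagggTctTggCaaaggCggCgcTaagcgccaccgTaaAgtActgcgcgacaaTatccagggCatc
H3C4: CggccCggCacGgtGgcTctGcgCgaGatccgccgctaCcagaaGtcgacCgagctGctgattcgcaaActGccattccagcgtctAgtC
H3C7: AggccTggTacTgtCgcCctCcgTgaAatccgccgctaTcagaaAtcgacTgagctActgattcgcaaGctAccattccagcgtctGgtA
The H4 stretches differ at 15 of 90 bases and the H3 stretches at 17, with the same amino acids encoded in both pairs. Over the whole coding sequence the differences were fewer for their length, 31 of 312 bases in the H4 pair and 50 of 411 in the H3 pair.

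Base composition was taken over the first 500 bp of the gene. The median G+C content was 57.4% in the 29 genes with a peak in either list and 56.3% in the 20 without, with ranges of 49.4 to 64% and 49 to 59.6%. The median share of G on the strand of the gene, the base with which N3-kethoxal reacts, was 27.6% and 27.7%. The median GC skew, G minus C over their sum on that strand, was -0.027 and -0.020. All protein-coding genes had medians of 63.8% G+C, 33.2% G and a skew of 0.052, and those with a sense peak in the first 500 bp 64.4%, 33.0% and 0.039. The medians of the histone genes with a peak were thus lower in G+C, in G and in GC skew than those of all genes with such a peak. This is a description with no test, since the genes of a family share much of their sequence.

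Other genes of the pathway were scored in the same way. Of 21 genes listed for the biogenesis and metabolism of histone mRNA, 13 in untreated cells (61.9%) had a peak within 1 kb of the record on either strand. In treated cells 15 did (71.4%). The shares of all protein-coding genes were 39.1% and 41.2%. The 2 found in treated cells only were POU2F1, the octamer-binding factor, and LSM11, a subunit of the U7 snRNP that directs cleavage of histone pre-mRNA. Over all protein-coding genes 7.54% had a peak in treated cells only, and nothing is read from these 2 genes. Under the rule on the first 500 bp, 7 of 21 had a peak in each list (33.3%, against 16.6% and 18.7%). CASP8AP2, known as FLASH, a factor of histone pre-mRNA processing, had one in untreated cells only, and CPSF3, the endonuclease of that cleavage, in treated cells only. Over all protein-coding genes 3.01% had such a peak in untreated cells only and 5.14% in treated cells only. Nothing is read from CASP8AP2 and CPSF3 either.

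Replacement histones are made outside S phase as well, and their mRNA is in most cases polyadenylated. Of 12 genes for them, 8 in each list (66.7%) had a peak within 1 kb and 7 (58.3%) a sense peak in the first 500 bp. For comparison, 39.1% of all protein-coding genes in untreated and 41.2% in treated cells had a peak within 1 kb. A sense peak in the first 500 bp was present in 16.6% and 18.7% of all protein-coding genes. Of 16 H2AC, H2BC, H3C and H4C genes elsewhere in the genome, 13 in each list had a peak within 1 kb, and 11 in untreated and 12 in treated cells had a sense peak in the first 500 bp, where H2AC20, an H2A gene, was found in treated cells only. Of the other protein-coding genes annotated in the same window of chromosome 6, leaving out HIST1H4B, which is a histone gene, there were 16. Of these, 8 in untreated and 7 in treated cells had a peak within 1 kb, and 1 and 2 a sense peak in the first 500 bp. The gene with a sense peak in both lists, ENSG00000282988, singled out after its values were seen, has its start at the same base as H2AC7, and its peak is the peak of H2AC7. BTN3A2 and BTN2A1, which encode butyrophilins, and ZNF391 had a peak in untreated cells only. ZNF322, which like ZNF391 encodes a zinc finger protein, and PRSS16, a serine protease of the thymus, had one in treated cells only, and that of ZNF322 was a sense peak in the first 500 bp. Over all protein-coding genes 5.47% had a peak within 1 kb in untreated cells only and 7.54% in treated cells only. For a sense peak in the first 500 bp, 5.14% had one in treated cells only. Nothing is read from the genes found in a single list.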

How the data were processed

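spKAS-seq was measured in HEK293T cells. Per the labels and methods, the authors used Trim Galore for trimming, Bowtie2 with default settings for alignment to hg19 and Picard MarkDuplicates to remove duplicates, and they defined R-loops from 2 replicates. Versions are not given in the sources used here. The deposited lists, 1 per condition, are each attached to replicate 1 and have 4 columns, namely the coordinates of a peak and its strand, with no height or score. Hence no test between conditions was run, and the depth is unknown. Inputs were not analysed here.

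Genes were taken from GENCODE release 44 mapped to GRCh37, the assembly named hg19 by the authors, with MANE or Ensembl canonical transcripts. A peak was tied to a gene if it overlapped the gene record extended by 1000 bp on either side by at least 1 bp, and it was shared if 1 bp or more of it lay under any peak, of either strand, in the other list. Coordinates are 1-based. Groups of genes were split where the gap exceeded 200000 bp. Shares carry Wilson intervals, which cover counting error only. All sequences were read from the GRCh37 genome. Repeated 31-base words were counted on both strands of the genome, and near copies were aligned end to end with Biopython 1.88. The overlap steps were tested on simulated data. Python 3.11.15, pandas 2.3.3, numpy 2.4.6, scipy 1.17.1 and matplotlib 3.10.9 were used.

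The genes and lists were chosen with earlier results of these data known. Genes were named if they had a peak in exactly 1 list, lay at the 5 widest peaks of a list or had peaks on both strands, if they are testis histone genes, or if they belong to a divergent pair with a peak at a single gene. All other members are named by family, near copies and genes for an identical protein with and without a peak, and genes of the other lists if a peak was in exactly 1 list. H4C2 under its older name was singled out after its values were seen. Alternatives of window, strand, peak width, assignment and overlap were recomputed.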

Additional observations from a re-analysis of the deposited data

How the results depend on the processing

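Of 98 values recomputed for 13 counts and shares, 87 stayed within 1.5 times the count or within the 95% interval of the share. A change of direction was defined only for the excess of histone genes over all protein-coding genes, which stayed positive in every setting. The count of genes with an untreated peak only was 1 in place of 2 with the gene record alone, with 500 bp on either side and with peaks on the strand of the gene only, since H2BC9 was then no longer counted. The count of genes with a treated peak only was 2 in place of 1 with peaks of at least 750 bp only and with each peak tied to 1 member. The share of gene and peak pairs in sense was 93.9% (untreated) and 96.9% (treated) with the gene record alone, and 90% and 87.1% with each peak tied to 1 member. The excess of histone genes with a peak over all protein-coding genes, 32.3 and 28.2 percentage points, was 43.9 and 42.6 points with peaks of at least 750 bp only. A further 2 alternatives were chosen after seeing the data. With the canonical transcript and 1 kb in place of the gene record, 33 and 32 genes had a peak, and without the 5 genes whose transcripts are mostly repeated words 31 and 30 did. No paired analysis was possible because a condition comes with 1 list of peaks. Peak height, depth and the variation between replicates were not available.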
